A study of Mus musculus with 6 samples.

Results

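The proteasome is the large protease that degrades ubiquitin-tagged proteins. Its genes were described here in Raw264.7 cells, a mouse macrophage line, after knockdown of *Etv5*, a transcription factor of the ETS family. Members were the genes whose symbol begins with Psm, a letter from a to g and a number, and 50 of the 24786 gene symbols in the table met that rule. Both groups consisted of Raw264.7 cells, which derive from an Abelson murine leukemia virus-induced tumor and whose strain the labels give as C57BL/6. The study names C57BL/6 for its mice and gives no strain for this cell line. The control cells carried a non-targeting lentiviral shRNA (sh-NC, genotype control, n = 3 libraries) and the knockdown cells an shRNA against *Etv5* (sh-*Etv5*, genotype *Etv5* knockdown, n = 3 libraries). The labels name 24 or 48 hours after infection without saying which holds for a library. The study describes passage and puromycin selection of infected cells, and stable transfection for the sequenced ones, so that the time between infection and RNA is not settled here. Neither source says if the libraries are separate cultures or infections, so that n counts libraries and p-values measure the spread between libraries, which may be technical. A fall in transcript level per cell and a change in the mix of cells cannot be told apart in bulk RNA.

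The core particle of the proteasome is a barrel of stacked rings, with outer rings of alpha subunits (*Psma* genes) and inner rings of beta subunits (*Psmb* genes) that carry the cutting sites. The regulatory particle caps the barrel. Its ATPases (*Psmc* genes) unfold substrates, and its other subunits (*Psmd* genes) recognize and remove ubiquitin. In cells exposed to interferon, *Psmb8*, *Psmb9* and *Psmb10* replace the constitutive cutting subunits *Psmb5*, *Psmb6* and *Psmb7* to form the immunoproteasome, and *Psme1* and *Psme2* form an alternative cap. This form is known for supplying peptides to MHC class I molecules and is present in many hematopoietic cells without stimulation.

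The libraries matched their labels. *Etv5* was at 9.18 to 9.89 RPKM (read number scaled by gene length and by mapped reads) in the sh-NC libraries and at 4.91 to 5.28 RPKM in the sh-*Etv5* libraries. Of 8 macrophage markers, 7 passed the filter on low values, *Mertk* being below it, and their summed level was 4287 to 4396 RPKM in sh-NC and 3375 to 3491 RPKM in sh-*Etv5* libraries. Among these markers, *Itgam* (log2 fold change 1.88), *Adgre1* (1.77) and *Cd14* (0.25) rose, whereas *Csf1r* (-0.81), *Cd68* (-0.57) and *Lyz2* (-0.47) fell. *Ptprc* was not called (0.06). Most of the summed level was *Lyz2*, with means of 2834 RPKM in sh-NC and 2041 RPKM in sh-*Etv5* libraries. The 15 markers of T cells, B cells, epithelium, fibroblasts and endothelium summed to 0.326 to 0.608 RPKM in sh-NC and 1.29 to 1.56 RPKM in sh-*Etv5* libraries. The highest single value was 0.759 RPKM, for *Pecam1*, and *Krt8* and *Col1a2* were listed at 0 in every library. Between sh-NC and sh-*Etv5* libraries, mean *Pecam1* went from 0.163 to 0.703 RPKM and mean *Cdh5* from 0.129 to 0.420 RPKM. RPKM values summed to 320462 to 322949 in the sh-NC libraries and to 330454 to 340257 in the sh-*Etv5* libraries. Sequencing depth is unknown, since only RPKM was used.

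The proteasome genes were broadly expressed in both groups. Of the 50 members, 48 passed the filter of 1 RPKM in at least 3 libraries, and each of these was above that value in all 6 libraries. The other two, *Psma8* and *Psmb11*, encode the testis and thymus forms, and their highest values were 0.00569 and 0.00763 RPKM. All members together summed to 3738, 3736 and 3727 RPKM across sh-NC libraries, compared with 3919, 3779.7 and 4074 RPKM across sh-*Etv5* libraries. As a share of all RPKM, this was 1.16% in each sh-NC library and 1.17%, 1.14% and 1.20% in the sh-*Etv5* libraries, so that the ranges of the groups overlapped.

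Individual members moved in both directions and by small amounts. By limma on log2(RPKM + 1), 20 of the 48 tested members rose and 14 fell with knockdown at a Benjamini-Hochberg adjusted p-value under 0.05 over all 10738 genes tested, and 14 were not called. Among all genes tested, 33.3% were called higher and 41.0% lower, 74.3% in all, so that the share of members called (70.8%) lay near the background. The groups did not overlap for 34 members (70.8%), against 76.4% of all genes tested. The directions and the size of the changes differed from the background, both described here without a test and without matching genes on expression level. More members were called higher than lower, and more of all genes tested were called lower than higher. The median log2 fold change was 0.013 in the members and -0.049 over all genes tested. The median absolute log2 fold change was 0.15 in the members and 0.31 over all genes tested. A called change above 0.5 on the log2 scale was seen in 3 members (6.25%), against 30.9% of all genes tested, and these were *Psmd8*, *Psmd11* and *Psmb9*. The split of directions depended on the scaling: with libraries rescaled to the same sum, 14 members were higher and 18 lower. The background moved the same way, with fewer of all genes tested called higher and more called lower than in the main fit. With that scaling, the median log2 fold change was -0.045 in the members and -0.10 over all genes tested.

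**Figure D1:**
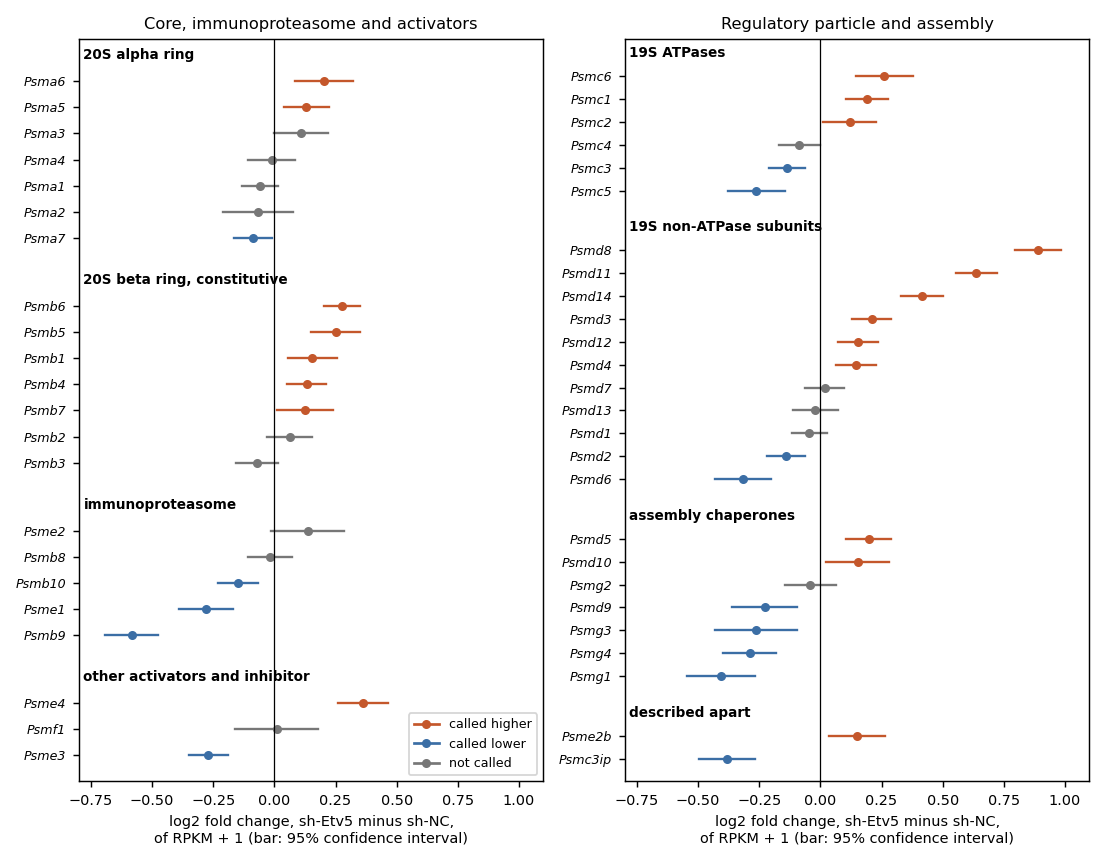
Log2 fold change of RPKM + 1 between sh-*Etv5* and sh-NC libraries (x axis) for the 48 tested members, grouped by role. Points are limma estimates, bars their 95% confidence intervals, and colors the call; *Psmd8* (0.89) and *Psmd11* (0.64) stand to the right of all others and *Psmb9* (-0.58) to the left.

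The share called among the 17 subunits of the regulatory particle was 76.5%, against 74.3% of all genes tested. Of the 17 subunits, 9 rose and 4 fell, with a median log2 fold change of 0.12 against -0.05 over all genes tested. With libraries rescaled to the same sum, 8 rose and 6 fell, with a median of 0.058 against -0.10 over all genes tested. The largest rise of any member was that of *Psmd8*, a subunit of the lid that helps to join the lid to the base. *Psmd8* was at 103, 101 and 103 RPKM across sh-NC and 193, 179 and 200.2 RPKM across sh-*Etv5* libraries. The groups were far apart relative to their spread, with means of 102 ± 1.36 and 191 ± 10.8 RPKM (SD, n = 3) and a log2 difference of 0.89 (standard error 0.0418, limma adjusted p = 7.43e-09). *Psmd11*, a lid scaffold subunit, was at 46.1, 48.0 and 45.7 RPKM in sh-NC and at 70.9, 72.7 and 75.6 RPKM in sh-*Etv5* libraries. It was 1.57-fold higher in sh-*Etv5* cells (log2 fold change 0.64, standard error 0.0381, limma adjusted p = 5.29e-08). *Psmd14* encodes the metalloprotease that cuts ubiquitin chains from substrates. Its level was 62.9, 63.2 and 66.2 RPKM in sh-NC and 84.3, 83.7 and 89.4 RPKM in sh-*Etv5* libraries, and the groups did not overlap. *Psmd14* was 1.34-fold higher (log2 fold change 0.41, standard error 0.0386, limma adjusted p = 2.1e-06).

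The lid did not move as a block. *Psmd3* (log2 fold change 0.21) and *Psmd12* (0.15) rose by less, *Psmd7* (0.02) and *Psmd13* (-0.02) were not called, and *Psmd6*, another lid subunit, fell. *Psmd6* was at 80.9, 83.2 and 82.5 RPKM in sh-NC and at 64.2, 61.6 and 72.2 RPKM in sh-*Etv5* libraries (log2 fold change -0.32, standard error 0.0522, limma adjusted p = 0.000218). Each sh-*Etv5* library was below each sh-NC library, the third being the least so. Of the base subunits outside the ATPase ring, *Psmd4*, a ubiquitin receptor, rose (0.15), the scaffold *Psmd2* fell (-0.14) and *Psmd1* was not called (-0.04). For *Psmd2*, 17.8% of its 50-base sequences occur elsewhere, mainly in the pseudogene *Gm5422*.

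The 6 ATPases form 1 ring and moved in opposite directions: *Psmc1*, *Psmc2* and *Psmc6* rose, *Psmc3* and *Psmc5* fell, and *Psmc4* was not called. *Psmc6* was at 52.9, 57.2 and 55.2 RPKM in sh-NC and at 65.2, 62.1 and 71.9 RPKM in sh-*Etv5* libraries (log2 fold change 0.26, standard error 0.0528, limma adjusted p = 0.000933). *Psmc5* was at 92.9, 83.8 and 90.0 RPKM in sh-NC and at 71.1, 71.0 and 80.0 RPKM in sh-*Etv5* libraries (log2 fold change -0.26, standard error 0.0533, limma adjusted p = 0.001). These changes of opposite sign and like size left the summed level of the 6 genes at 507 to 516 RPKM in sh-NC and 495 to 538 RPKM in sh-*Etv5* libraries. The libraries of *Psmc2* overlapped between the groups, and its call (limma adjusted p = 0.0462) was lost without any one of 5 libraries and with libraries rescaled to the same sum.

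Transcription start windows are shown for the 3 members with the largest rises and the 1 with the largest fall. RefSeq windows on GRCm38.p6, from 250 bases before to 50 bases after the start, were found for 42 of the 50 members (45 windows). Both strands were searched for an ETS core (CCGGAA), for the antioxidant-response-like TGANNNNGC, which proteins of the NRF family bind, for an interferon-stimulated core (GAAA, any 2 bases, GAAA), for the GAS element TTCNNNGAA and for an NF-κB-like run (GGGA, any 4 bases, CC). Capitals mark the matches. *Psmd8* lies on the minus strand (window chr7:29180624-29180923), *Psmd11* on the plus strand (chr11:80428365-80428664), *Psmd14* on the plus strand (chr2:61711444-61711743) and *Psmb9* on the minus strand (chr17:34187281-34187580).
Psmd8: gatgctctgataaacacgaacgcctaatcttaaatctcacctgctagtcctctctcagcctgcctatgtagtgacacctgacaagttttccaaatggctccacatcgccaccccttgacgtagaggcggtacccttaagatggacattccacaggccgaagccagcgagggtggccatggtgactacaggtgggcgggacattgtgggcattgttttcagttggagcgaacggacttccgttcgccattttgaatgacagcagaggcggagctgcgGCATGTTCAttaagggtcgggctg
Psmd11: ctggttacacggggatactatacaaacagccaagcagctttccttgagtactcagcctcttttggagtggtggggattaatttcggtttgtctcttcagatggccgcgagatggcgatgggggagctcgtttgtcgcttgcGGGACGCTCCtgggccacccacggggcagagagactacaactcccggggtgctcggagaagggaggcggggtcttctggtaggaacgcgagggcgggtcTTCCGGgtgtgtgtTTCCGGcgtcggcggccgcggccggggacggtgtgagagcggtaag
Psmd14: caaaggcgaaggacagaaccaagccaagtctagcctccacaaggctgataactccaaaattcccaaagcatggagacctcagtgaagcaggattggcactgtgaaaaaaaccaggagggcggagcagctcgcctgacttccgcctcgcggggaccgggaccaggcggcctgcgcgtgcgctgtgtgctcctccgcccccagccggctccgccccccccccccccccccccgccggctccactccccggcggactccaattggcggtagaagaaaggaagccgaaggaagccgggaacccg
Psmb9: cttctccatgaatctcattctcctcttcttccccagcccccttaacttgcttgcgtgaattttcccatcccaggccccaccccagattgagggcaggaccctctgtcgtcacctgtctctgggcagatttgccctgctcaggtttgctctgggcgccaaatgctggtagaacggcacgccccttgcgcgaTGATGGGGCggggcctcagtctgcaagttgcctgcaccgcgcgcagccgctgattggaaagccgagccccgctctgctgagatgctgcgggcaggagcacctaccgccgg
The *Psmd11* window holds the ETS core at 2 places close to the start and 1 NF-κB-like match, the *Psmd8* and *Psmb9* windows hold 1 antioxidant-response-like match each, and the *Psmd14* window holds none of these letters. Across members, the ETS core was found in 22 of 45 windows (48.9%), against 18.6% of the 21641 windows of all genes in the table, and in 0 of the 6 immunoproteasome windows. TGANNNNGC was found in 57.8% of member windows and 42.0% of all windows, the interferon-stimulated core in 11.1% and 3.39%, TTCNNNGAA in 6.67% and 7.96%, and the NF-κB-like run in 24.4% and 23.1%. The ETS core was found in 5 of the 6 ATPase windows and in windows of members of either direction, such as *Psmd11*, which rose, and *Psmg1*, which fell. Windows were not matched on base composition, and a match is a run of letters, not a bound site.

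Levels differed more among core subunits than between the groups. Over the 14 core genes, the mean over all libraries ran from 13.7 RPKM for *Psma3* to 288 RPKM for *Psmb4*, on a scale that is per length of gene. *Psma3* shares 15.4% of its 50-base sequences with the pseudogene *Gm13835*, and the part of such sharing in its low level was not tested. The share called among the 14 core genes was 57.1%, against 74.3% of all genes tested. Of the 14 core genes, 7 rose and 1 fell, with a median log2 fold change of 0.12 against -0.05 over all genes tested. With libraries rescaled to the same sum, 4 rose and 3 fell, with a median of 0.057 against -0.10 over all genes tested. In the alpha ring, which gates entry to the barrel, *Psma6* had the largest rise, from 125, 124 and 127 RPKM to 143, 133 and 158 RPKM (log2 fold change 0.20, standard error 0.0537, limma adjusted p = 0.00513). *Psma7* was at 116, 113 and 114 RPKM in sh-NC and at 105, 106 and 111 RPKM in sh-*Etv5* libraries (log2 fold change -0.09, limma adjusted p = 0.0399), a call that was lost without any one of 5 libraries. *Psma5* rose (0.13), a call lost when libraries had equal sums, and 49.96% of its 50-base sequences occur in other genes, mainly pseudogenes. *Psma1*, *Psma2*, *Psma3* and *Psma4* were not called.

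All 3 constitutive cutting subunits were called higher in sh-*Etv5* cells, as were 33.3% of all genes tested. *Psmb6*, the caspase-like subunit, was at 121, 121 and 117 RPKM in sh-NC and at 146, 142 and 147 RPKM in sh-*Etv5* libraries. It rose by 21.3% (log2 fold change 0.28, standard error 0.0328, limma adjusted p = 1.59e-05). *Psmb5*, the chymotrypsin-like subunit and the target of proteasome inhibitors such as bortezomib, was at 76.8, 75.8 and 75.7 RPKM in sh-NC and at 93.9, 83.9 and 94.7 RPKM in sh-*Etv5* libraries. The groups did not overlap (log2 fold change 0.25, standard error 0.046, limma adjusted p = 0.000478), although 54.1% of its 50-base sequences occur in other genes, mainly the pseudogene *Gm3375*. *Psmb7*, the trypsin-like subunit, was at 151, 149 and 151 RPKM in sh-NC and at 154, 159 and 180.3 RPKM in sh-*Etv5* libraries, with the third sh-*Etv5* library far above the others (log2 fold change 0.13, limma adjusted p = 0.0454). Without that library, without any one sh-NC library, or with another scaling, *Psmb7* was not called. Of the structural beta subunits, *Psmb1* (0.16) and *Psmb4* (0.13) rose, *Psmb4* losing its call with the same sum, and *Psmb2* (0.06) and *Psmb3* (-0.07) were not called.

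Of the 5 immunoproteasome genes, 3 were called lower and 2 were not called, with a median log2 fold change of -0.15. The share called was 60%, against 74.3% of all genes tested, of which 41.0% were called lower. *Psmb9* (GRCm38 chromosome 17, 34181987 to 34187764, minus strand) replaces *Psmb6* and had the largest fall of any member. *Psmb9* was at 32.8, 31.4 and 30.9 RPKM in sh-NC and at 21.6, 19.4 and 21.5 RPKM in sh-*Etv5* libraries. Means of *Psmb9* were 31.7 ± 0.951 and 20.8 ± 1.24 RPKM (SD, n = 3), a log2 difference of -0.58 (standard error 0.0493, limma adjusted p = 9.48e-07), and no library of one group reached the other. *Psmb10* (chromosome 8, 105935735 to 105938444, minus strand), which replaces *Psmb7*, was at 43.7, 44.4 and 43.2 RPKM in sh-NC and at 38.8, 38.6 and 40.7 RPKM in sh-*Etv5* libraries (log2 fold change -0.15, standard error 0.0373, limma adjusted p = 0.00387). *Psmb8* (chromosome 17, 34197721 to 34201454, plus strand), which replaces *Psmb5*, was at 77.8, 82.9 and 80.5 RPKM in sh-NC and at 77.3, 77.6 and 83.2 RPKM in sh-*Etv5* libraries. The groups overlapped for *Psmb8*, with a log2 fold change of -0.02 and a 95% confidence interval of -0.11 to 0.07 (limma adjusted p = 0.693).

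*Psme1* (chromosome 14, 55578123 to 55581529, plus strand) encodes a subunit of the cap that opens the barrel without ATP. *Psme1* fell from 83.2, 88.3 and 85.6 RPKM to 68.0, 67.2 and 76.6 RPKM (log2 fold change -0.28, standard error 0.05, limma adjusted p = 0.000404). Its partner subunit *Psme2* lies on the opposite strand of the same chromosome (55587441 to 55591113) and was at 26.3, 23.6 and 24.6 RPKM in sh-NC and at 25.1, 26.7 and 30.6 RPKM in sh-*Etv5* libraries. The groups overlapped (log2 fold change 0.14, 95% confidence interval -0.01 to 0.29, limma adjusted p = 0.0883). *Psme2* cannot be read alone, because 28.3% of its 50-base sequences also occur in the single-exon gene *Psme2b*, and 68.7% of those of *Psme2b* occur in *Psme2*. *Psme2b* itself was at 74.2, 71.1 and 70.7 RPKM in sh-NC and at 80.9, 73.5 and 85.9 RPKM in sh-*Etv5* libraries (log2 fold change 0.15, limma adjusted p = 0.0222), and its call was lost without any one of 4 libraries. With both rows summed, the log2 fold change was 0.15 (limma adjusted p = 0.0221), a call opposite to that of *Psme1*. Most of the sum was *Psme2b*, with a mean of 72.0 RPKM in sh-NC libraries against 24.8 RPKM for *Psme2*. The call of *Psme2b* was also lost with libraries rescaled to the same sum (0.089, limma adjusted p = 0.0937). The summed rows were fitted with the main settings only, and *Psme2* alone was not called.

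**Figure D2:**
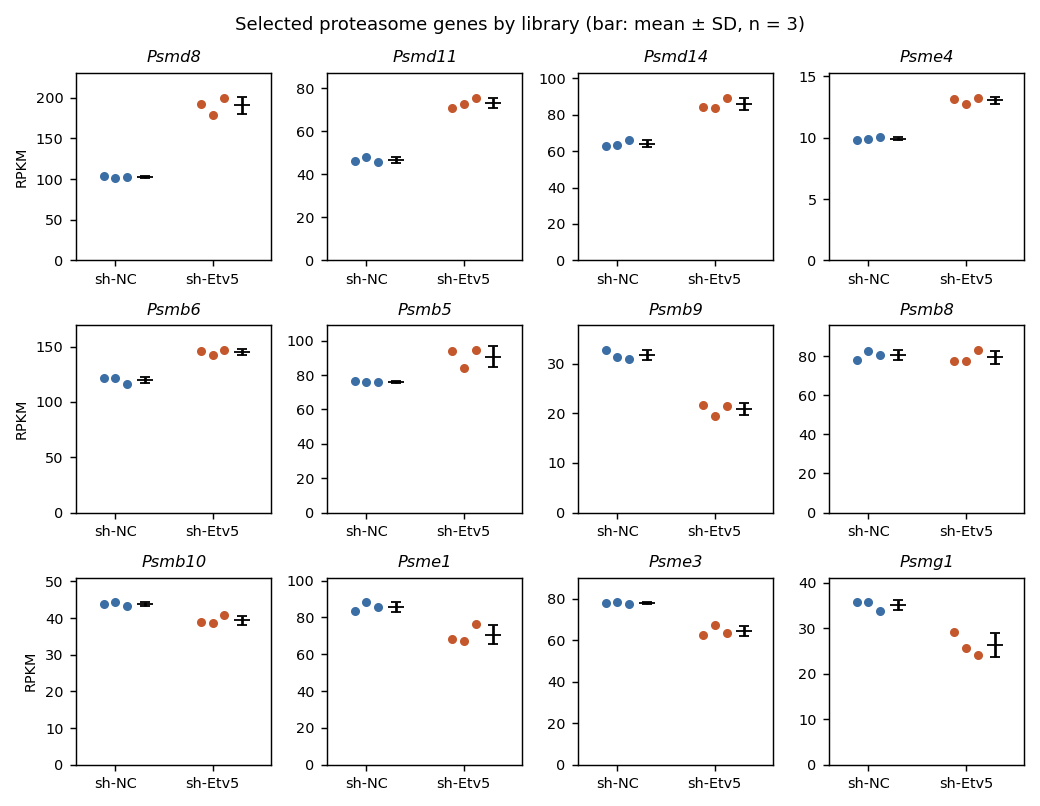
RPKM of 12 members in each library (y axes from 0), with sh-NC on the left and sh-*Etv5* on the right of each panel. Points are libraries and bars the mean ± SD (n = 3); for *Psmd8* the groups were near 102 and 191 RPKM, for *Psmb9* near 31.7 and 20.8 RPKM, and for *Psmb8* they overlapped.

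The balance of inducible to constitutive subunits was read within each library as a log2 ratio, which does not depend on the scaling between libraries except through the pseudocount of 1. For *Psmb9* over *Psmb6* it was -1.86, -1.92 and -1.88 in sh-NC and -2.70, -2.81 and -2.72 in sh-*Etv5* libraries, a difference of -0.86 (standard error 0.0388). For *Psmb10* over *Psmb7* the ratio went from -1.76, -1.72 and -1.78 to -1.96, -2.01 and -2.12, a difference of -0.27 (standard error 0.0493). For *Psmb8* over *Psmb5* it went from 0.019, 0.13 and 0.087 to -0.28, -0.11 and -0.18, a difference of -0.27 (standard error 0.0574). In each of these 3 pairs, all sh-*Etv5* libraries lay below all sh-NC libraries. For single genes, the groups did not overlap in 76.4% of all genes tested. In the last pair, *Psmb5* rose (0.25) and *Psmb8* hardly moved (-0.02), and the limit on shared sequences of *Psmb5* given above holds. The ratio of *Psmb10* to *Psmb7* carries the limit on the call of *Psmb7* given above. Exons of *Psmb7* also overlap those of *Nek6* on the opposite strand over 11.8% of their bases. The inducible genes supplied 30.7%, 31.4% and 31.0% of the summed RPKM of these 6 cutting subunits in the sh-NC libraries and 25.9%, 26.0% and 25.6% in the sh-*Etv5* libraries.

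For the caps, the ratio of *Psme1* to *Psme3* was between 0.093 and 0.17 in sh-NC and between -0.0016 and 0.26 in sh-*Etv5* libraries, so that the groups overlapped (difference -0.0080, standard error 0.0801). *Psme2* over *Psme3* rose from between -1.69 and -1.53 to between -1.30 and -1.03 (difference 0.41, standard error 0.099), with the limit on *Psme2* given above. In a two-sided exact permutation test over the libraries, 4 of the 5 pairs had p = 0.1, the smallest that 3 against 3 libraries can give, and *Psme1* over *Psme3* had p = 1. Adjusted over the 5 pairs, the exact p was 0.125 for those 4 pairs, so that none could pass 0.05 in this design.

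**Figure D3:**
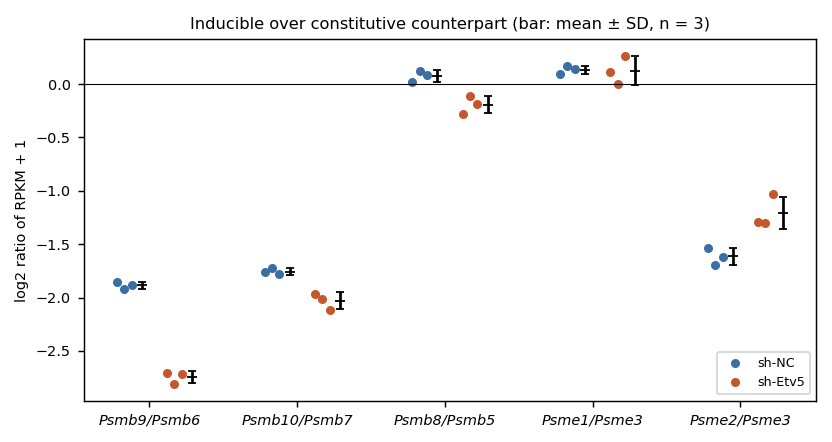
Log2 ratio of RPKM + 1 (y axis), by library, for 5 pairs (x axis). The *Psmb* pairs set an inducible gene over the constitutive subunit that it replaces, whereas *Psme1* and *Psme2* are set over *Psme3*, their nuclear relative. Points are libraries and bars the mean ± SD (n = 3); the groups are apart in 4 pairs and overlap for *Psme1* over *Psme3*.

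The other activators moved apart. *Psme3* encodes the nuclear relative of *Psme1* and *Psme2*, and it fell from 78.0, 78.5 and 77.6 RPKM to 62.8, 67.2 and 63.6 RPKM (log2 fold change -0.27, standard error 0.0362, limma adjusted p = 4.2e-05). *Psme4*, which encodes a large single-chain activator, rose from 9.82, 9.92 and 10.1 RPKM to 13.1, 12.7 and 13.3 RPKM (log2 fold change 0.36, standard error 0.0462, limma adjusted p = 2.94e-05). Neither gene shares a 50-base sequence with another, and their groups did not overlap. *Psmf1*, named as an inhibitor of the core particle, was at 10.8, 9.01 and 9.57 RPKM in sh-NC and at 10.8, 9.84 and 8.98 RPKM in sh-*Etv5* libraries. It was not called (log2 fold change 0.01, 95% confidence interval -0.16 to 0.18, limma adjusted p = 0.911).

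The assembly chaperones moved in both directions, with 2 rising and 4 falling of 7. The share called (85.7%) stood beside 74.3% of all genes tested. *Psmg1*, *Psmg3* and *Psmg4*, which help to build the alpha ring, fell, and *Psmg2*, the partner of *Psmg1*, was not called. *Psmg1* was at 35.8, 35.8 and 33.9 RPKM in sh-NC and at 29.3, 25.7 and 24.1 RPKM in sh-*Etv5* libraries (log2 fold change -0.41, standard error 0.0625, limma adjusted p = 0.000129). *Psmg2* was at 22.4, 22.2 and 24.6 RPKM in sh-NC and at 22.3, 22.3 and 22.5 RPKM in sh-*Etv5* libraries (log2 fold change -0.04, limma adjusted p = 0.442). The levels of the pair were thus further apart in sh-NC than in sh-*Etv5* libraries. *Psmg4* (-0.29) fell without overlap between the groups, and *Psmg3* (-0.26) fell with overlap. Of the chaperones of the ATPase ring, *Psmd5* rose from 23.3, 23.0 and 24.6 RPKM to 27.5, 27.7 and 26.5 RPKM (log2 fold change 0.20, standard error 0.0423, limma adjusted p = 0.00143). *Psmd10* also rose (0.15) and *Psmd9* fell (-0.23). The call of *Psmd10* was lost without any one of 4 libraries, and exons of *Psmd9* overlap a long non-coding RNA over 25.5% of their bases. *Psmc3ip* met the symbol rule but encodes a meiotic recombination factor and no proteasome subunit. It fell (-0.38), and its exons overlap those of *Mlx* on the opposite strand over 21.2% of their bases.

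Partner genes outside the family were read from 2 lists. Of 21 proteasome partners, 20 were tested, 8 rose and 8 fell, with a median log2 fold change of 0.00122, and the share called (80.0%) stood beside 74.3% of all genes tested. *Zfand2a*, a stress-induced proteasome-associated protein, had the largest rise, from 7.73, 7.82 and 8.36 RPKM to 22.0, 23.3 and 21.2 RPKM (log2 fold change 1.37, standard error 0.0527, limma adjusted p = 1.55e-09). *Nfe2l1*, the transcription factor known to raise proteasome genes when the proteasome is impaired, went from 40.0, 39.7 and 39.2 RPKM to 82.9, 84.4 and 78.9 RPKM (log2 fold change 1.03, standard error 0.037, limma adjusted p = 9.21e-10). The enzymes that activate its protein moved the other way. *Ngly1*, which removes its sugar chains, had the largest fall of the list (-0.61, from 4.23 ± 0.249 to 2.41 ± 0.209 RPKM, SD, n = 3), and the protease gene *Ddi2* fell as well (-0.29). *Ubb*, a polyubiquitin gene, rose (0.77), and *Rps27a*, which encodes ubiquitin fused to a ribosomal protein, was not called (0.05). Among proteins that act on the particle itself, the deubiquitinase *Usp14* fell (-0.45), the maturation factor *Pomp* fell (-0.18), the lid subunit *Sem1* rose (0.21) and the ubiquitin receptor *Adrm1* was not called (0.07).

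Of 8 interferon and peptide-supply partners, 3 rose, 3 fell and 2 were not called, and the share called (75.0%) was near that of all genes tested (74.3%). *Tap2*, a subunit of the peptide transporter, had the largest rise, from 19.9, 17.8 and 18.3 RPKM to 30.9, 30.5 and 30.8 RPKM (log2 fold change 0.69, standard error 0.0473, limma adjusted p = 1.59e-07). *Tap1*, the other transporter subunit, rose from 24.7, 24.1 and 24.3 RPKM to 34.4, 35.6 and 30.9 RPKM (log2 fold change 0.45, standard error 0.0518, limma adjusted p = 1.35e-05). *Tap1* is the neighbor of *Psmb9* on chromosome 17, transcribed from the opposite strand, and the pair were called in opposite directions. Their exons overlap over 212 bases, which is 5.79% of the exonic bases of *Psmb9*, and without strand the reads of that stretch cannot be told apart. *Erap1*, a peptide-trimming enzyme, had the largest fall (-0.73, from 25.9 ± 0.515 to 15.2 ± 0.0996 RPKM, SD, n = 3). *Tapbp* (-0.39), which loads peptides onto MHC class I molecules, fell and *Nlrc5* (0.29) rose, while *Irf1* (-0.18) and *B2m* (0.07) were not called.

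**Figure D4:**
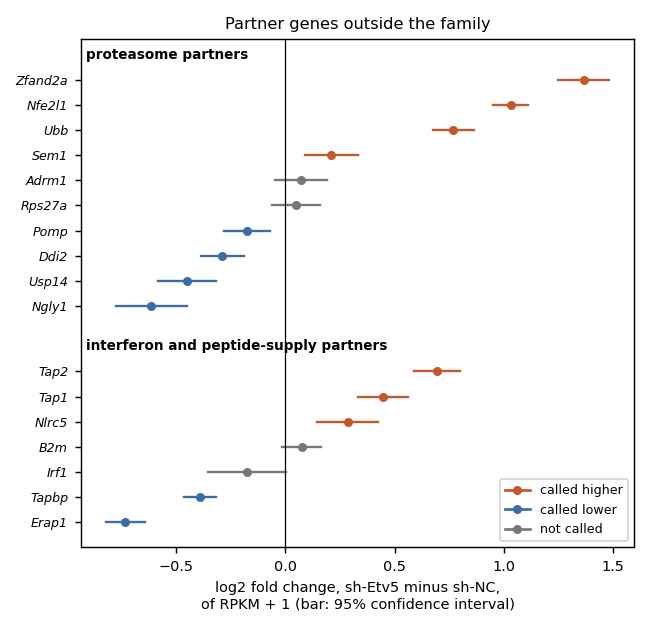
Log2 fold change of RPKM + 1 between sh-*Etv5* and sh-NC libraries (x axis) for the genes of both partner lists that are named here. Points are limma estimates, bars their 95% confidence intervals, and colors the call; *Zfand2a* (1.37) and *Nfe2l1* (1.03) lie farthest to the right and *Erap1* (-0.73) farthest to the left.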

How the data were processed

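Polyadenylated RNA of 6 Raw264.7 libraries was sequenced (3 sh-NC, 3 sh-*Etv5*, grouped by title). The authors deposited RPKM values, taken from coverage tracks, for 24786 gene symbols, without a log transformation. The labels name mm10, and the aligner, annotation and use of strand are not given in the sources used here. Low values did not fall on a common step (15.6% of 250 low genes shared the commonest ratio between 2 libraries), so whole reads were not recovered and depth is unknown.

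Genes reaching 1 RPKM in 3 or more of the 6 libraries were compared on log2(RPKM + 1) with limma 3.58.1 (R 4.3.3; eBayes with trend, two-sided, no covariate), with Benjamini-Hochberg adjusted p-values under 0.05 called. Because of the pseudocount, fold changes of low genes come out too small. On simulated data for this comparison (10585 genes), 89 of 100 genes changed by 0.5 and 97 of 100 changed by 1 on the log2 scale were called, with 8 unchanged genes. Far fewer genes were changed there than were called in the data (74.3% of genes tested), so that these counts do not carry over to the data. Changes smaller than 0.5, the size of most member changes, were not simulated. Pair ratios were compared by a two-sided exact permutation test. Positions, exon overlaps and shared 50-base sequences came from GENCODE M21 (GRCm38, the assembly of mm10), to which 50 of 50 members matched by symbol, and start windows from RefSeq (GRCm38.p6). Python 3.11.15, pandas 2.3.3 and matplotlib 3.10.9 were used. The members, gene lists, motifs and pairs were chosen with earlier results of these data known. Named in full were the immunoproteasome genes, their counterparts, the other activators, in each remaining group and list the called genes with the highest and the lowest log2 fold change, *Psmd11* and *Psmd14*, and the members not called were counted.

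Alternatives were other pseudocounts (0.1, 0.01), testing without a filter or with a minimum mean of 5 RPKM, rescaling to equal sums, quantile normalization, dropping the eBayes trend, blocking on replicate number, leaving out single libraries, and requiring a log2 fold change beyond 0.5. Summing *Psme2* with *Psme2b* and leaving out members that share over 10% of their 50-base sequences were added after the data were seen. Some genes of the partner lists are counted there but not reported here by name.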

Additional observations from a re-analysis of the deposited data

How the results depend on the processing

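Of the 34 members called, 25 kept their call and direction under the 14 alternatives run for each member, 13 of them higher and 12 lower, among them *Psmd8*, *Psmd11*, *Psmd14*, *Psmb5*, *Psmb6*, *Psmb9*, *Psmb10*, *Psme1*, *Psme3*, *Psme4* and *Psmg1*. The 9 others, *Psma5*, *Psma7*, *Psmb1*, *Psmb4*, *Psmb7*, *Psmc2*, *Psmd10*, *Psme2b* and *Psmg3*, lost their call in at least 1 alternative, and the cause was not tested. Depth is unknown and limits what can be said of such small differences.

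A threshold of 0.5 on the log2 fold change gave the lowest counts, with 1711 genes higher and 1611 lower among all genes tested, 2 higher and 1 lower members, 0 higher and 0 lower core genes, 2 higher and 0 lower regulatory genes, 1 lower immunoproteasome gene, and 0 higher and 0 lower assembly chaperones. After rescaling to equal sums, the median log2 fold change was -0.045 over all members, 0.057 for the core, 0.058 for the regulatory particle and -0.21 for the immunoproteasome. The median over all genes tested also moved down, from -0.049 to -0.10. With that scaling, 4 core genes were higher and 3 lower, and 1 assembly chaperone was higher. Quantile normalization gave 3 lower core genes, 1 higher immunoproteasome gene (*Psme2*) and a median of -0.096 for the immunoproteasome, against -0.073 over all genes tested. The number of lower core genes was 0 without the filter and without trend, and the number of higher assembly chaperones was 1 under each.

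With 1 library left out, 0 to 4 core genes were lower (4 without sh-*Etv5* replicate 3, 0 without any other), 0 to 1 immunoproteasome genes were higher (1 without sh-*Etv5* replicate 1), 1 to 2 assembly chaperones were higher (2 without sh-NC replicate 3 or sh-*Etv5* replicate 2), and the median of the regulatory particle was 0.065 to 0.16 (lowest without sh-*Etv5* replicate 3). The direction of members that were not called turned: the values ran from -0.14 to 0.015 for *Psma2*, from -0.052 to 0.014 for *Psma4*, from -0.053 to 0.0036 for *Psmb8*, from -0.043 to 0.018 for *Psmd13*, from -0.0090 to 0.031 for *Psmd7*, from -0.051 to 0.077 for *Psmf1* and from -0.068 to 0.0045 for *Psmg2*. The difference of *Psme1* over *Psme3* ran from -0.077 to 0.056. *Psmd13* was at 0.012 with quantile normalization, and *Psmd7* and *Psmf1* were at -0.044 and -0.046 with the same sum.

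Same-numbered libraries did not deviate together (correlations 0.0739, -0.071 and -0.0352 over genes), so the numbers were not taken as pairs. With the replicate number as a block, 19 members were higher and 13 lower, 0 core genes were lower, and *Psma7* (limma adjusted p = 0.0506) and *Psmc2* (limma adjusted p = 0.0627) were the members no longer called. Over all 10738 genes tested, 3539 were higher and 4361 lower with that block. Without the 12 members that share over 10% of their 50-base sequences with other genes, 16 were higher and 11 lower. In the main fit, 33.3% of all genes tested were higher and 41.0% lower.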
